A study of Mus musculus with 55 samples.

Results

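The 10 genes described here encode the heat shock factor HSF1 and 9 cytosolic, endoplasmic reticulum and mitochondrial chaperones or their partners: Hspa8, Hspa5, Hsph1, Dnaja1, Dnajb1, Hsp90aa1, Hsp90ab1, Hspd1 and Hspe1. They were taken by symbol, and no measured value entered the rule. All 10 were present in both tables of pre-mRNA abundance, which list 9911 genes for CCNA-GFP cells and 10237 genes for CTCF-AID cells. The study asked in which order genes resume transcription after mitosis, and whether the loss of the architectural protein CTCF alters this. RNA was sequenced from mouse E14Tg2a embryonic stem (ES) cells of strain 129/Ola in 55 libraries. All synchronised cells of either line received 10 µM RO-3306, an inhibitor of CDK1, for 4 h and then 50 ng/ml nocodazole, which blocks spindle formation, for 4 h. Cells arrested in mitosis were then shaken off the dish and let go from the block.

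The first line carries the CCNA-GFP cell cycle reporter and gave 19 libraries, with 3 from asynchronous cells, 3 from mitotic cells, 2 each at 20, 30, 40, 60, 90 and 120 min after release and 1 at 50 min. In the second line, which is 1 clone, CTCF is fused to an auxin-inducible degron (AID), so that both its arms carry the tagged protein and differ only in the auxin IAA. The untreated arm (-IAA) and the treated arm (+IAA) gave 18 libraries each, with 3 asynchronous, 3 mitotic and 2 at each of 20, 40, 50, 60, 90 and 120 min. For the mitotic and released cells of the treated arm, 0.5 mM IAA was present for the last 2 h of nocodazole and through the release. Asynchronous +IAA cells had 0.5 mM IAA for 4 h. The study's methods describe 3 independent replicates, of which replicate 1 covers nearly all stages and replicates 2 and 3 alternate ones. Where a stage holds 2 libraries, the spread rests on those 2 and on the spread that limma shares between groups.

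The values are the TPM, a transcript abundance scaled by length and by library, of the unspliced pre-mRNA form of each gene, which follows ongoing transcription more closely than total mRNA. The listed genes summed to 13747 to 17245 TPM in the mitotic CCNA-GFP libraries and to 30992 to 42576 TPM at 60 min, so that most genes rise together after mitosis on this scale. In CTCF-AID cells the sums over both arms lay between 17702 and 43370 TPM. Read depth is unknown from these values. Of 8 ES cell markers 7 were listed in both tables (all but Sox2), and the 4 endoderm markers were not listed in either. Of neural ectoderm and mesoderm markers, Pax6 and T were listed, at up to 1.27 and 1.59 TPM in CCNA-GFP libraries and up to 1.997 and 5.18 TPM in CTCF-AID libraries, while Sox1 and Mixl1 were not. The fibroblast markers were not listed for CCNA-GFP cells, and in CTCF-AID cells Col1a1 and Thy1 summed to 0.146 to 3.42 TPM. Their part in the results was not tested. Ctcf pre-mRNA lay between 5.74 and 10.3 TPM in the -IAA arm and between 5.98 and 11.8 TPM in the +IAA arm. Since the degron acts on the protein, this does not check the treatment. In such bulk libraries, fewer transcribing cells and less pre-mRNA per cell cannot be told apart.

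Chaperones bind unfolded or partly folded proteins and help them to reach or keep their native form. HSP70 proteins bind short exposed stretches of a client in cycles of ATP hydrolysis that J proteins start and exchange factors end, HSP90 acts on later folding states, and the HSP60 chaperonin with its HSP10 lid folds proteins inside mitochondria. On protein damage, HSF1 forms trimers, binds heat shock elements in DNA and activates many of these genes, although several of them are also made at high levels in unstressed dividing cells.

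Promoter windows of 300 bases, from 250 before a start site to 50 from it on, were taken from RefSeq (GRCm38.p6) for 6 of the 10 genes. They are shown here because they hold the sites through which these genes are usually described. Windows of Hsf1, Hspa8, Hsp90ab1 and Hsp90aa1 were not used here. Heat shock element letters were searched as GAANNTTC or TTCNNGAA, which are each their own reverse complement. Of 32851 promoter windows in the genome, 15.1% held at least 1 of them. The Hspe1 window (chr1:55087898-55088197, + strand) held 3 overlapping matches that begin 89, 84 and 79 bases before its start site. The same 3 matches lie in the opposite orientation in a window of Hspd1 whose start site is 216 bases away, so that from these starts the pair faces apart from one shared stretch. A second RefSeq start of Hspd1 lies inside Hspe1, and the window of that start held none of these letters. The Hsph1 window shown (chr5:149636287-149636586, - strand) held 1 match that begins 33 bases before the start site and 2 overlapping ones that begin at bases 37 and 42 from it, with the start site as base 1. From another RefSeq start of Hsph1 the same matches begin 54 bases before it and at bases 16 and 21 from it. The Hspa5 window (chr2:34771840-34772139, + strand) held none of these letters but held 1 endoplasmic reticulum stress element, searched as CCAAT and CCACG with 9 bases of any kind between them on both strands and found in 0.119% of all windows. Capitals mark the matched letters.
Hspe1: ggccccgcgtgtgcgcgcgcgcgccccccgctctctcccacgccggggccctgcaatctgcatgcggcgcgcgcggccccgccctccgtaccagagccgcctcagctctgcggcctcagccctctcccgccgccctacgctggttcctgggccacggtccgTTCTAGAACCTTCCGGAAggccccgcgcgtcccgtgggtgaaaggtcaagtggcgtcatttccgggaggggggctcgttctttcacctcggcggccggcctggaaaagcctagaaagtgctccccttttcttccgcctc
Hsph1: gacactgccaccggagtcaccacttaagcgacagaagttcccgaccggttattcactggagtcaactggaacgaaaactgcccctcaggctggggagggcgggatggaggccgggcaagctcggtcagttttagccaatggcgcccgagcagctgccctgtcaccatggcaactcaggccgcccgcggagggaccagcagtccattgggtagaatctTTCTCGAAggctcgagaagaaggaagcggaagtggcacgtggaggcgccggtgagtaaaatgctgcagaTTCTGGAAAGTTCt
Hspa5: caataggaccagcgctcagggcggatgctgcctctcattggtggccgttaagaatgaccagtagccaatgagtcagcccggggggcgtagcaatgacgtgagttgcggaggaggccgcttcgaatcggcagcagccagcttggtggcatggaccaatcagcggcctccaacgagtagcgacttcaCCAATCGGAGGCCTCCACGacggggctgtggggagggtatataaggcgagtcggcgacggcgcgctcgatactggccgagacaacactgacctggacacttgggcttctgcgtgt
One of the Dnaja1 windows held GAAAATTC, beginning 124 bases before the start site, and the Dnajb1 windows held neither form. A match describes letters only, and no binding was measured here.

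The first comparison asks when each gene rises above its mitotic level. At 20 min none of the 10 genes was called, nor was any gene of either table, and by 40 min 9 of them, all but Hspd1, had risen in all 3 arms, beside 49.3%, 63.3% and 58.7% of all genes in CCNA-GFP, -IAA and +IAA cells. The rise was led by the HSP70 genes Hspa8 and Hspa5, the HSP90 gene Hsp90aa1 and the J protein gene Dnajb1. At 60 min all 10 were above mitosis in CCNA-GFP cells on the deposited scale, beside 88.3% of all genes, while in both CTCF-AID arms 9 were above, beside 84.8% and 82.2%, and Hspd1 was below. All changes from here on are differences of log2(TPM + 1) with their standard error (SE), which understate the fold change of low genes. The test was limma, blocked on the replicate number, and a gene was called at an adjusted p under 0.05 over all listed genes.

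**Figure D1:**
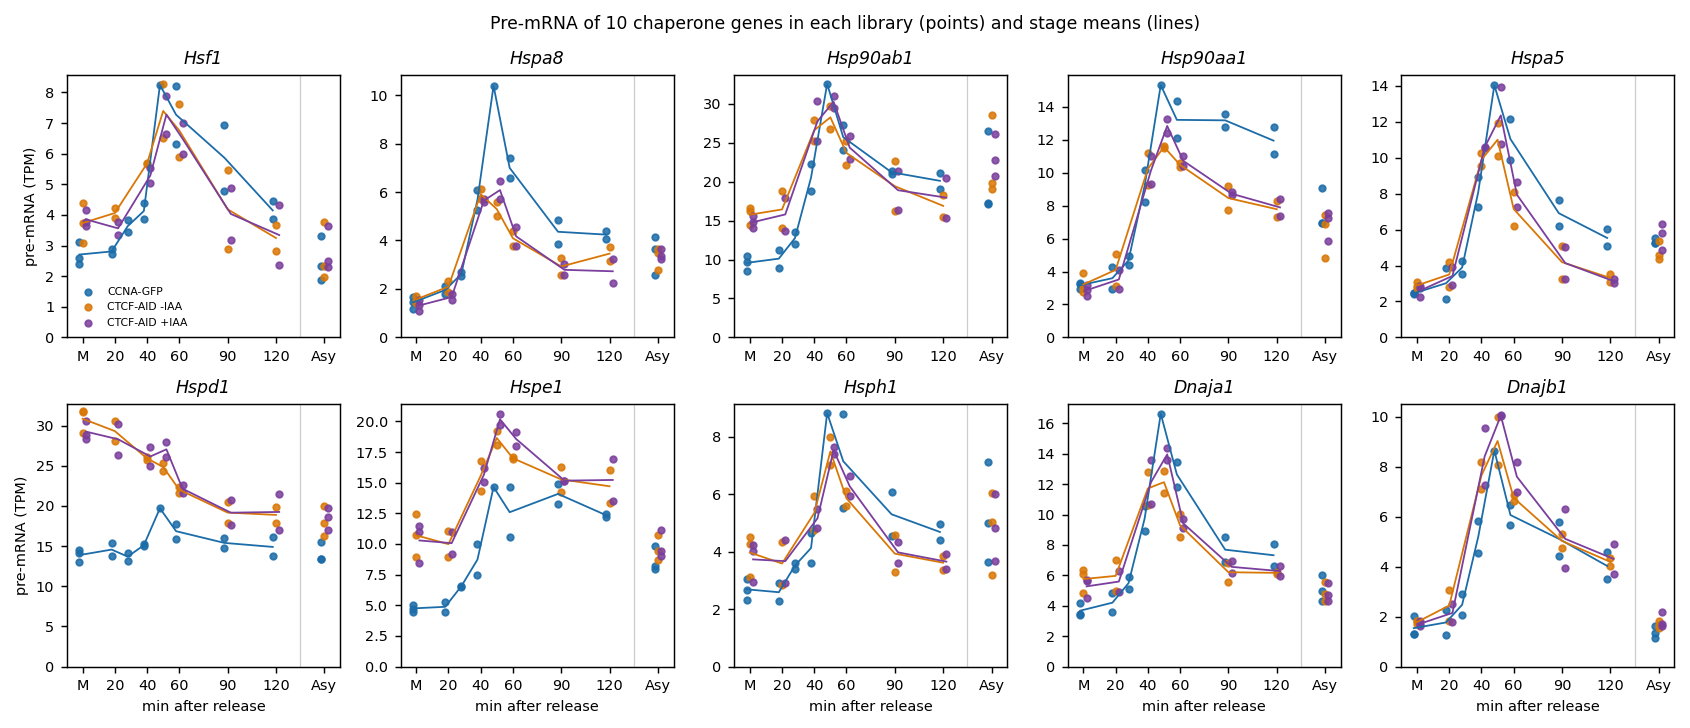
Pre-mRNA abundance in TPM (vertical axes, linear, from 0) of the 10 chaperone genes against minutes after release (M, mitotic cells; Asy, asynchronous cells). Points are single libraries, lines join stage means, and colours mark CCNA-GFP, CTCF-AID -IAA and CTCF-AID +IAA. The highest stage mean of Hspd1 in the CTCF-AID -IAA arm is the mitotic one, at 30.9 TPM, while the other 9 genes rise from mitosis.

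At 20 min the changes of the 10 genes ran from 0.055 to 0.35 in CCNA-GFP cells, from -0.039 to 0.33 in the -IAA arm and from -0.0036 to 0.32 in the +IAA arm. limma called 0 of the 10 in each arm, beside a background of 0% of all genes in each. At an unadjusted p under 0.05 stood 1 member and 253 genes in all in CCNA-GFP cells, 3 and 397 in the -IAA arm, and 0 and 149 in the +IAA arm. The 30 min stage, sampled only in CCNA-GFP cells, gave 0 calls among the members beside 0.303% of all genes, with 6 members and 1135 genes in all at an unadjusted p under 0.05. The change of Hspa8 was the highest of the members at both stages, at 0.35 (SE 0.13) and 0.50 (SE 0.13).

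By 40 min, 9 of 10 members were called higher in CCNA-GFP cells, where 49.3% of all genes were. Their median change over the 10 was 1.19, beside 0.26 over all genes. The same count held in the -IAA arm, with 63.3% of all genes called higher and medians of 0.89 for the members and 0.34 for all genes, and in the +IAA arm, with 58.7% and medians of 1.04 and 0.30. No member was called lower at 40 min, beside 3.21% of all genes in the -IAA arm and 3.87% in the +IAA arm. On the deposited scale most genes rise after mitosis, so the members were also ranked among all genes. Of the 10, 6 stood above the 95th percentile of change at 40 min in CCNA-GFP cells, and 4 did in each CTCF-AID arm. These ranks are of changes in log2(TPM + 1), where low genes change less. When all libraries were scaled to the same total, which removes a shift shared by all genes, 7 members were called higher and 1 lower at 40 min in CCNA-GFP cells, beside 23.7% and 31.3% of all genes. Each CTCF-AID arm then had 6 higher and 1 lower, beside 33.3% and 36.7% of all genes in the -IAA arm and 33.2% and 38.6% in the +IAA arm. Without the replicate block 7 were called higher at 40 min in each arm, beside 23.8%, 43.5% and 40% of all genes, and Hsf1 and Hsph1 were the ones lost in all 3.

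The 50 min stage, tested only in CTCF-AID cells, had the same 9 members higher in each arm, beside 79.1% of all genes in the -IAA arm and 78.2% in the +IAA arm. Hspd1 was called lower there in the -IAA arm, where 4.56% of all genes were.

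At 60 min, 10 of 10 members were called higher in CCNA-GFP cells, beside 88.3% of all genes, with a median change of 1.49 against 0.79 over all genes. CTCF-AID cells without IAA had 9 higher and 1 lower, beside 84.8% and 2.70% of all genes, with medians of 0.76 and 0.63. In the +IAA arm the members were again 9 higher and 1 lower, beside 82.2% and 4.04%, with medians of 0.83 and 0.63. A share of 9 or 10 in 10 is therefore close to the share of all genes at this stage. Medians and percentiles against all genes refer throughout to log2(TPM + 1), where low genes change less. The median gene was low, at 0.906, 0.830 and 1.07 TPM in the mitotic CCNA-GFP libraries. In plain TPM, the 10 genes held 0.302% of the listed sum in mitosis and 0.328% at 60 min in CCNA-GFP cells. This share went from 0.384% to 0.292% in the -IAA arm and from 0.372% to 0.309% in the +IAA arm. Scaling to the same total lowered the median change of all genes at 60 min by 0.77, 0.58 and 0.57 in the CCNA-GFP, -IAA and +IAA cells. On that scale 6 members were higher and 1 lower in CCNA-GFP cells, beside 36.4% and 33.3% of all genes. The -IAA arm had 3 higher and 5 lower, beside 39.4% and 31.1%, and the +IAA arm 4 higher and 2 lower, beside 40.7% and 33.2%.

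**Figure D2:**
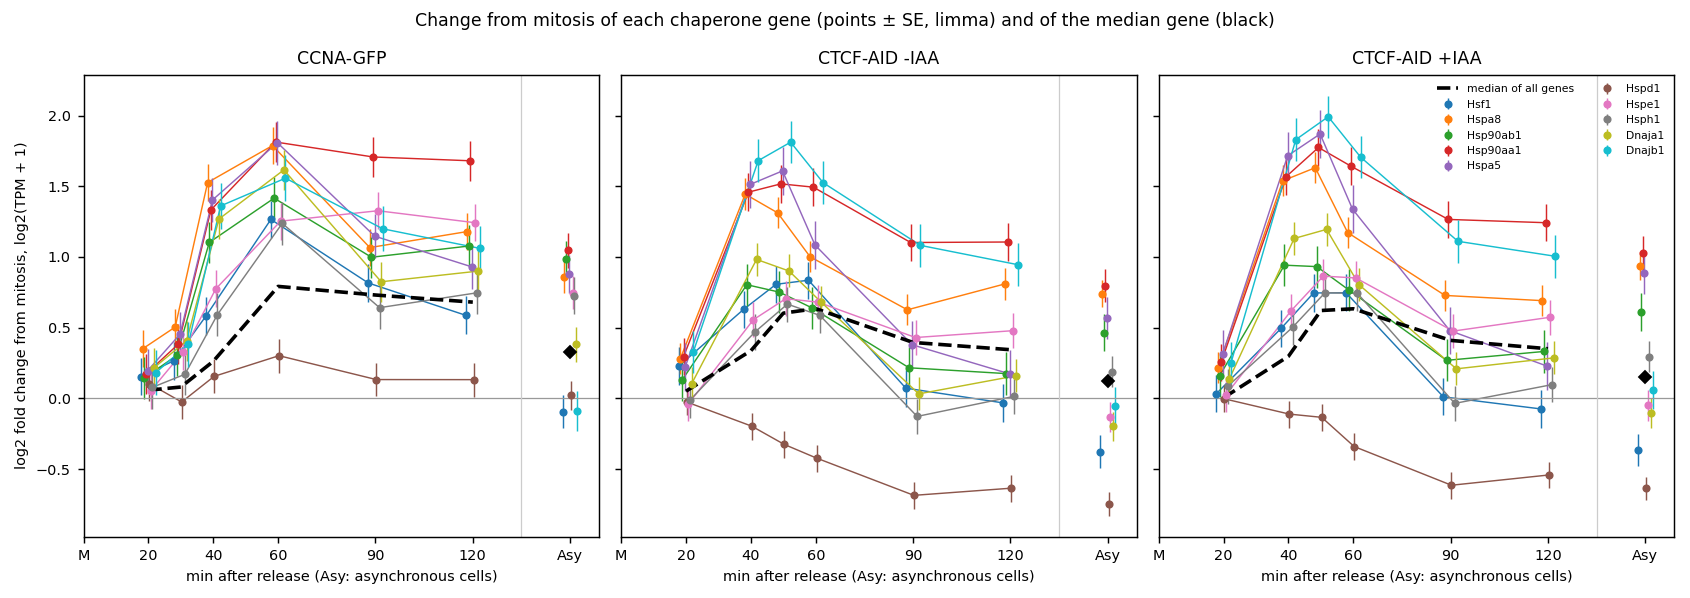
Change from mitosis in log2(TPM + 1) (vertical axis) of each chaperone gene by minutes after release, with one panel per arm. Coloured points are limma estimates with SE, the dashed black line and diamond are the median of all listed genes, and the single CCNA-GFP library at 50 min has no estimate. At 40 min the median of all genes stands at 0.26 to 0.34 while Hspa8, Hspa5, Hsp90aa1 and Dnajb1 stand between 1.33 and 1.83. Hspd1 lies under the median at each stage from 40 min on.

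Gene positions are those of GENCODE M21 on GRCm38. There, the share of a gene that is intronic in all transcripts was lowest for Hspa5 (24.2%) and Dnajb1 (28.2%) and highest for Hspd1 (74.6%). How this bears on the pre-mRNA estimates was not tested. Hsf1 (chr15:76477422-76501913, + strand), the transcription factor of the heat shock response, measured 2.40, 2.59 and 3.12 TPM in the mitotic CCNA-GFP libraries. It reached 4.39 and 3.86 TPM at 40 min, 8.25 TPM in the 50 min library and 8.22 and 6.33 TPM at 60 min. In the -IAA arm it went from 3.07, 3.73 and 4.400 TPM in mitosis to 5.89 and 7.62 TPM at 60 min. The 60 min libraries lay above all mitotic ones in both lines. The change at 60 min was 1.27 (SE 0.13, adjusted p = 2.5e-08) in CCNA-GFP cells and 0.84 (SE 0.13, adjusted p = 3.0e-06) in the -IAA arm. With libraries scaled to the same total, the -IAA change was 0.018 (limma, adjusted p = 0.86) and was not called. Asynchronous libraries overlapped the mitotic ones, with 1.89, 2.33 and 3.31 TPM in CCNA-GFP cells and 1.97, 2.35 and 3.77 TPM in the -IAA arm. Against mitosis the asynchronous level was -0.09 (SE 0.12, not called) in CCNA-GFP cells, and in the -IAA arm it fell by 0.38 (SE 0.12). The -IAA call was lost without replicate 1 (-0.34), without replicate 2 (-0.32), without the block (-0.38) and when libraries were divided by their rounding step (-0.16). On the scale of equal totals the CCNA-GFP value was -0.57 and was called.

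Hspa8 (chr9:40800984-40810087, + strand), the constitutive cytosolic HSP70, had the lowest mitotic mean of the 10 genes in every arm. It measured 1.18, 1.46 and 1.69 TPM in mitotic CCNA-GFP cells, 6.10 and 5.25 TPM at 40 min, 10.4 TPM in the 50 min library and 7.42 and 6.58 TPM at 60 min. The mitotic -IAA libraries held 1.72, 1.56 and 1.42 TPM and the 40 min libraries 5.72 and 6.11 TPM. The 2 groups did not overlap in either line. The change at 40 min was 1.53 (SE 0.13) in CCNA-GFP cells, at the 99.3rd percentile of all genes, and 1.44 (SE 0.11) in the -IAA arm, at the 97.5th. The annotation places 3 small nucleolar RNAs of the Snord14 group inside this gene, in its direction, and their share in the values was not tested.

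Hspa5 (chr2:34771970-34777547, + strand) encodes BiP, the HSP70 of the endoplasmic reticulum, and its promoter letters are shown above. Its mitotic CCNA-GFP libraries held 2.47, 2.42 and 2.45 TPM, and those at 60 min 12.2 and 9.90 TPM. Its -IAA libraries rose from 3.07, 2.76 and 2.85 TPM to 10.3 and 9.52 TPM at 40 min and 10.1 and 11.9 TPM at 50 min. At 60 min the -IAA libraries held 6.18 and 8.11 TPM. The change at 60 min was 1.81 (SE 0.15) in CCNA-GFP cells, at the 96.8th percentile, and 1.08 (SE 0.17) in the -IAA arm, at the 82.6th, where it was 0.28 (not called) on the scale of equal totals. The -IAA change at 40 min was 1.51 (SE 0.17), at the 98.1st percentile. Hsph1 (chr5:149614287-149636376, - strand), an HSP110 that serves HSP70 as a nucleotide exchange factor, rose less. It measured 2.68, 2.33 and 3.06 TPM in mitotic CCNA-GFP cells and 8.79 and 5.52 TPM at 60 min, 2 libraries that lie apart from each other but above all mitotic ones. The change was 1.24 (SE 0.15) there and 0.59 (SE 0.12) in the -IAA arm, at the 79.3rd and 45.7th percentiles. Scaled to the same total, the values were 0.13 (not called) in CCNA-GFP cells and -0.23 in the -IAA arm, so its call in the one and its direction in the other depend on the scale.

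The J proteins hand clients to HSP70 and start its ATP hydrolysis. Dnajb1 (chr8:83608193-83612653, + strand), the J protein of HSP70 under heat stress, was at 1.29, 1.30 and 2.02 TPM in mitotic CCNA-GFP cells and at 5.84 and 4.54 TPM by 40 min. Its -IAA libraries held 1.83, 1.83 and 1.68 TPM in mitosis, 8.18 and 7.12 TPM at 40 min and 8.07 and 9.98 TPM at 50 min. No library of these later stages came near a mitotic one. Its 60 min change was 1.56 (SE 0.16) in CCNA-GFP cells, 1.53 (SE 0.15) in the -IAA arm and 1.71 (SE 0.15) in the +IAA arm, at the 91.7th, 95.9th and 97.3rd percentiles. Asynchronous libraries overlapped the mitotic ones, at 1.33, 1.15 and 1.63 TPM in CCNA-GFP cells and 1.84, 1.54 and 1.66 TPM in the -IAA arm. The difference from mitosis was not called in either on the deposited scale, but on that of equal totals it was -0.49 in CCNA-GFP cells and was called. Dnaja1 (chr4:40722150-40737149, + strand), a second cytosolic J protein, rose from 3.45, 3.39 and 4.19 TPM to 13.5 and 11.8 TPM at 60 min in CCNA-GFP cells, a change of 1.62 (SE 0.14). Dnaja1 in -IAA cells rose from 6.37, 4.81 and 6.08 TPM to 12.8 and 10.6 TPM at 40 min and was back at 6.09 and 6.23 TPM at 120 min. The annotation has Smu1 and a long non-coding RNA on the other strand of Dnaja1 and Mir207 on its own strand. Dnaja1 gave the change of 0.68 (SE 0.12) at 60 min in the -IAA arm and -0.19 on the scale of equal totals.

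The cytosolic HSP90 is encoded by a pair of genes. Hsp90ab1 (chr17:45567775-45573271, - strand), the constitutive form, had the highest mean of the 10 in asynchronous cells, with 17.1, 17.3 and 26.5 TPM in CCNA-GFP and 19.8, 19.03 and 28.6 TPM in -IAA cells. It rose in CCNA-GFP cells from 9.72, 8.50 and 10.5 TPM in mitosis to 27.3 and 24.1 TPM at 60 min, and the change was 1.42 (SE 0.15), or 0.14 (not called) on the scale of equal totals. Its level in the -IAA arm rose from 16.6, 14.4 and 16.3 TPM to 22.1 and 25.3 TPM, by 0.64 (SE 0.15), which became -0.30 on the scale of equal totals. Hsp90aa1 (chr12:110690605-110702728, - strand), the form inducible by stress, had a lower level and a greater change. It measured 3.31, 2.92 and 3.26 TPM in mitotic CCNA-GFP cells and 14.3 and 12.1 TPM at 60 min, a change of 1.81 (SE 0.14). Its -IAA level rose from 3.91, 2.76 and 2.98 TPM to 10.3 and 10.6 TPM, by 1.49 (SE 0.13), and this stayed positive under every scaling tried.

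The ratio of the 2 HSP90 genes within a library does not depend on how libraries were scaled. Hsp90aa1 over Hsp90ab1 was 0.332 ± 0.018 (SD, n = 3) in mitotic CCNA-GFP cells, 0.513 ± 0.017 (n = 2) at 60 min, 0.622 ± 0.020 (n = 2) at 90 min and 0.384 ± 0.036 (n = 3) in asynchronous cells. The -IAA values were 0.203 ± 0.028 (n = 3) in mitosis, 0.444 ± 0.034 (n = 2) at 60 min, 0.441 ± 0.049 (n = 2) at 90 min and 0.287 ± 0.052 (n = 3) in asynchronous cells. The post-mitotic libraries from 40 min on lay above every mitotic and every asynchronous one of their line. With 3 against 2 libraries the exact two-sided permutation test cannot go below p = 0.2, which is what it gave for 60 min against mitosis in each arm.

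Hspd1 and Hspe1 encode HSP60 and HSP10, the barrel and the lid of the mitochondrial chaperonin, and lie head to head on chromosome 1. The annotation gives Hspd1 chr1:55077835-55088243 on the - strand and Hspe1 chr1:55088132-55091307 on the + strand, with 112 bases in common. Libraries were stranded, but whether the estimates used the strand is not given in the sources used here. The annotation also names 5 pseudogenes after Hspd1 and 6 after Hspe1, and how reads shared with them were assigned was not tested. The 2 genes did not move together.

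Hspe1 rose after mitosis in all 3 arms. It went from 5.05, 4.48 and 4.70 TPM in mitotic CCNA-GFP cells to 14.6 and 10.6 TPM at 60 min and from 12.5, 8.91 and 10.7 TPM to 17.1 and 16.9 TPM in the -IAA arm. The 60 min libraries lay above the mitotic ones in both, with changes of 1.25 (SE 0.13) and 0.68 (SE 0.12). On the scale of equal totals the change of Hspe1 was 0.048 (not called) in CCNA-GFP cells and -0.24 in the -IAA arm.

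Hspd1 had the highest mitotic mean of the 10 genes in each arm, and it changed little or fell where the others rose. In CCNA-GFP cells it measured 12.96, 14.1 and 14.5 TPM in mitosis, 17.8 and 15.9 TPM at 60 min and 13.7 and 16.1 TPM at 120 min. Its change at 60 min was 0.30 (SE 0.12, adjusted p = 0.0235), at the 16.6th percentile of all genes. This call was lost without replicate 1 (0.20), without replicate 2 (0.42), without replicate 3 (0.29), without the block (0.26) and when divided by the rounding step (0.14), and the change turned to -0.98 on the scale of equal totals. Hspd1 fell in the -IAA arm from 31.8, 29.1 and 31.7 TPM in mitosis to 22.4 and 21.7 TPM at 60 min and 17.9 and 19.8 TPM at 120 min. Asynchronous cells of that arm held 17.9, 16.2 and 20.0 TPM, so the mitotic libraries lay above all of these. The change was -0.42 (SE 0.09, adjusted p = 2.4e-04) at 60 min, -0.64 (SE 0.09) at 120 min and -0.75 (SE 0.08) in asynchronous cells, at the 0.664th, 0.420th and 0.244th percentiles of all genes. In the +IAA arm the mitotic libraries held 28.8, 28.4 and 30.6 TPM and the 60 min libraries 21.7 and 22.7 TPM, a change of -0.34 (SE 0.09, adjusted p = 0.0020) that was not called without replicate 1 (-0.29, adjusted p = 0.066). No test was made between the lines, which come in separate tables.

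On the deposited scale, the mitotic CTCF-AID libraries held more of both genes than the CCNA-GFP ones, while asynchronous Hspe1 libraries of the lines overlapped. This was not tested, as the lines come in separate tables. The ratio of the 2 genes, Hspe1 over Hspd1, rose from mitosis to 60 min in all 3 arms and was not tested between them. It was 0.343 ± 0.040 (SD, n = 3) in mitotic CCNA-GFP cells, 0.346 ± 0.043 (n = 3) in mitotic -IAA cells and 0.351 ± 0.046 (n = 3) in mitotic +IAA cells. At 60 min it was 0.742 ± 0.110, 0.772 ± 0.011 and 0.839 ± 0.065 (n = 2 each). The 90 min libraries held 1.005 and 0.831 in CCNA-GFP cells, 0.797 and 0.795 in the -IAA arm and 0.862 and 0.732 in the +IAA arm. Asynchronous cells were in between, at 0.613 ± 0.018, 0.533 ± 0.007 and 0.533 ± 0.042 (n = 3 each), and all CCNA-GFP libraries lay above the CTCF-AID ones there. Every library from 40 min on was above every mitotic library of its arm, and all asynchronous ones were too. For asynchronous against mitotic cells the exact two-sided permutation test gave p = 0.1 in each arm, the smallest it can give with 3 against 3 libraries.

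**Figure D3:**
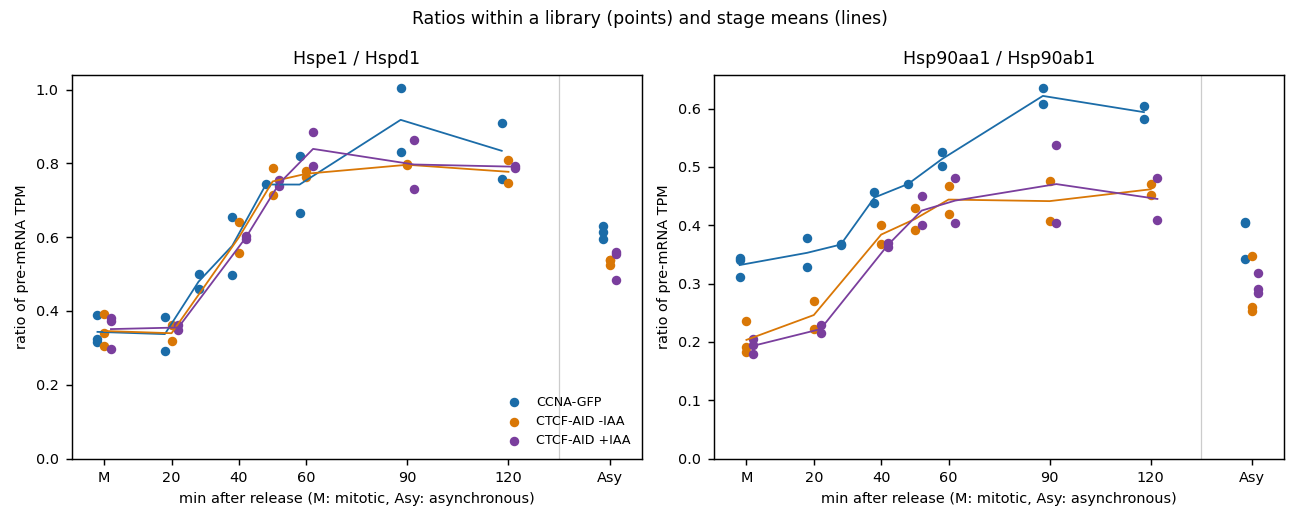
Ratio of pre-mRNA TPM within each library (vertical axes, from 0) for Hspe1 over Hspd1 (left) and Hsp90aa1 over Hsp90ab1 (right), by minutes after release. Points are single libraries, lines join stage means, and colours mark the 3 arms. The chaperonin ratio goes from about 0.343 in mitosis to 0.742 at 60 min in CCNA-GFP cells, and both ratios are lower in asynchronous cells than at 60 min.

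The next comparison asks whether the genes went above their asynchronous level and how far they came back. At 60 min all 10 were called above asynchronous CCNA-GFP cells, beside 67.0% of all genes, with a median difference of 0.85 against 0.47 over all genes. The -IAA arm had 9 members called higher beside 75.2% of all genes, with medians of 0.61 and 0.52, and in the +IAA arm 8 were, beside 72.2%, with medians of 0.53 and 0.49. The counts in CCNA-GFP cells and in the -IAA arm fell to 6 without replicate 1 and to 6 without replicate 2, in that order, beside 44.7% and 68.2% of all genes. Each fell to 5 when libraries were divided by their rounding step, beside 42.1% and 62.7%. The call of Hspd1 in CCNA-GFP cells, at 0.28, was lost with robust eBayes (0.28), with genes of at least 1 TPM (0.28) and without the block (0.24). It was also lost without replicate 1 (0.19), replicate 2 (0.36) or replicate 3 (0.31), and its value was negative on both other scales. Dnajb1 and Hsf1 stood highest, with 1.65 (SE 0.16) and 1.36 (SE 0.13) in CCNA-GFP cells and 1.58 (SE 0.15) and 1.21 (SE 0.13) in the -IAA arm. Hsp90ab1 was among the lowest, at 0.43 (SE 0.15) in CCNA-GFP cells, a call lost without replicate 1 (0.38), without replicate 2 (0.42), without the block (0.35) or when divided by the rounding step (0.032), and at 0.18 (SE 0.15, not called) in the -IAA arm. Scaled to the same total, 4 members were higher and 3 lower than in asynchronous CCNA-GFP cells, beside 3466 and 3486 of the 9911 genes, and 3 higher and 4 lower in the -IAA arm, beside 37.5% and 32.9% of all genes.

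Between 60 and 120 min, 6 of the 10 genes were called lower in CCNA-GFP cells, beside 28.5% of all genes, and none was higher. Hspa5, with 12.2 and 9.90 TPM at 60 min and 5.06 and 6.01 TPM at 120 min, fell by 0.88 (SE 0.16). Dnaja1, from 13.5 and 11.8 TPM to 6.61 and 8.04 TPM, fell by 0.72 (SE 0.15), and Hsf1, from 8.22 and 6.33 TPM to 3.85 and 4.44 TPM, fell by 0.68 (SE 0.14). Hspa8, Dnajb1 and Hsph1 fell by 0.61 (SE 0.14), 0.50 (SE 0.17) and 0.49 (SE 0.16). Without replicate 1, which left 1 library at each of these stages, 1 of the 10 was called lower, beside 6.37% of all genes, and with libraries scaled to the same total 5 were called lower and 0 higher, beside 21.7% and 24.4% of all genes. The call of Dnajb1 was also lost with a pseudocount of 0.1 (-0.59) and on the scale of equal totals (-0.32). Both Dnajb1 and Hsph1 lost their calls when divided by the rounding step (each about -0.38 to -0.39) and without the block, where their values stayed at -0.50 and -0.49. Hsp90aa1, Hsp90ab1, Hspd1 and Hspe1 were not called, with differences of -0.13 (SE 0.15), -0.34 (SE 0.16), -0.17 (SE 0.13) and -0.011 (SE 0.14).

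Of the 10 genes, 7 were called lower in the -IAA arm between 60 and 120 min, beside 53.1% of all genes, and in the +IAA arm 8 were, beside 50.8%. Hspa5 and Hsf1 fell most here, by 0.91 (SE 0.18) and 0.87 (SE 0.14) in the -IAA arm and by 1.11 (SE 0.18) and 0.82 (SE 0.14) in the +IAA arm. Hspa5 then stood at 3.54 and 3.07 TPM in -IAA cells at 120 min, under its asynchronous libraries of 5.39, 4.37 and 4.57 TPM, a difference of -0.39 (SE 0.17) that was called. In CCNA-GFP cells its difference from asynchronous cells at 120 min was 0.05 (SE 0.15, not called). Over the 10 genes, 6 were called higher at 120 min than in asynchronous CCNA-GFP cells, beside 63.4% of all genes. The -IAA arm had 5 higher and 1 lower, beside 51.0% and 7.25%, and the +IAA arm 3 higher and 1 lower, beside 47.2% and 8.43%, and the lower one was Hspa5 in both. At 120 min Dnajb1 was still 1.15 (SE 0.16) above asynchronous CCNA-GFP cells and 1.00 (SE 0.15) above asynchronous -IAA cells, the greatest difference of the 10 in each. Scaled to the same total, the -IAA arm gave 1 member higher and 3 lower between 60 and 120 min, beside 25.6% and 26.5% of all genes.

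Against mitosis, 9 members were called higher at 90 min in CCNA-GFP cells, beside 89.1% of all genes, and Hspd1 was not called. Both CTCF-AID arms had Hspa8, Hsp90aa1, Hspa5, Hspe1 and Dnajb1 higher and Hspd1 lower at 90 min, beside 74.8% and 3.37% of all genes in the -IAA arm and 73.8% and 4.41% in the +IAA arm. At 120 min 9 members were called higher in CCNA-GFP cells, beside 90.2% of all genes, 4 higher and 1 lower in the -IAA arm, beside 69.6% and 3.15%, and 5 higher and 1 lower in the +IAA arm, beside 68.2% and 4.42%. The +IAA count of higher members rose without replicate 1 and fell without replicate 2, each of which left 1 library at 120 min. On the scale of equal totals 3 were higher in each arm, beside 28.7%, 32.0% and 33.5% of all genes, and 2, 5 and 5 were lower, beside 23.5%, 25.9% and 28.7%. Of the 4 in the -IAA arm, Hsp90aa1 stood at 1.11 (SE 0.13), Dnajb1 at 0.95 (SE 0.15), Hspa8 at 0.81 (SE 0.11) and Hspe1 at 0.48 (SE 0.12). Asynchronous CCNA-GFP cells had 7 members above mitosis, beside 70.4% of all genes, with a median of 0.74 against 0.33 over all genes, while Hsf1, Dnajb1 and Hspd1 were not called. Asynchronous -IAA cells had 4 above and 2 below, beside 34.3% and 5.25%, and those below were Hspd1 and Hsf1. The +IAA arm had 5 above and the same 2 below, beside 40.9% and 5.89%. In that arm 1 member was called below without replicate 1, without replicate 2, without the block or when divided by the rounding step. On the scale of equal totals the asynchronous counts were 6 higher and 3 lower in CCNA-GFP cells, beside 24.8% and 20.3% of all genes, and 4 higher and 4 lower in each CTCF-AID arm, beside 27.2% and 21.4% in the -IAA and 29.8% and 22.4% in the +IAA arm. Hsp90aa1 was highest in CCNA-GFP and -IAA cells, at 1.05 (SE 0.12) and 0.80 (SE 0.12).

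The IAA comparison asks whether loss of CTCF changed these genes at any stage. It used limma without a block, and the study's thresholds of an adjusted p under 0.1 and a log2 difference over 0.2. At 60 min Hspa8 measured 3.78 and 4.41 TPM without and 3.79 and 4.55 TPM with IAA, and Hsp90aa1 10.3 and 10.6 TPM without and 11.01 and 10.4 TPM with IAA. Libraries of both arms overlapped for each. Over 8 stages and 10 genes, 0 of 80 differences were called, and 0 had an unadjusted p under 0.05. The background was 0% of all genes in mitosis and at 20 and 40 min. The study tested read counts with DESeq2 and did report genes that responded early after mitosis. Its test and the one used here are therefore unlike, and a lack of calls at these stages is not particular to the 10 genes. Of all genes, 0.283% and 0.225% were called at 50 and 60 min, 0.733% and 0.586% at 90 and 120 min, and 1.01% in asynchronous cells. The 80 differences ran from -0.27 to 0.20 with SE between 0.11 and 0.24. With the replicate number as a block the SE were between 0.084 and 0.18, again 0 were called, and 1 had an unadjusted p under 0.05. At 50 min 9 of the 10 differences were above 0, beside 51.7% of all genes, among them that of Dnaja1, with 11.4 and 12.8 TPM without and 13.6 and 14.3 TPM with IAA, at 0.19 (SE 0.17, not called). The lowest was that of Hspa8 at 120 min, with 3.17 and 3.75 TPM without and 2.23 and 3.23 TPM with IAA, at -0.27 (SE 0.14, unadjusted p = 0.070, or 0.035 in limma with the block, where the adjusted p was 0.97).

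**Figure D4:**
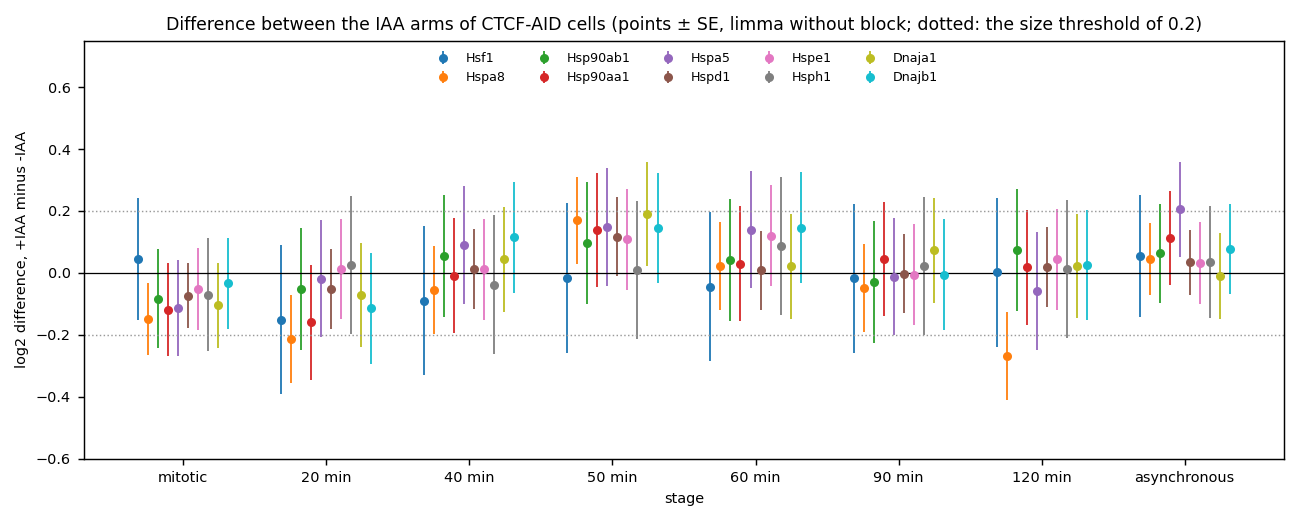
Difference of log2(TPM + 1) between the +IAA and -IAA arms of CTCF-AID cells (vertical axis) for the 10 chaperone genes at 8 stages. Points are limma estimates with SE, the solid line is 0 and the dotted lines are the size threshold of 0.2. The points lie between -0.27 and 0.20.

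The test of the difference itself, whether the change from mitosis differed between the arms, gave 0 calls among 70 comparisons with values from -0.20 to 0.32. It called 0% of all genes at 20 min, 0.00977% at 40 min, 0.137% and 0.156% at 50 and 60 min, 0.557% and 0.42% at 90 and 120 min, and 0.459% in asynchronous cells. The single unadjusted p under 0.05 was that of Hspa8 at 50 min, with 5.003 and 5.59 TPM without and 5.71 and 6.45 TPM with IAA, where the change was greater in the +IAA arm by 0.32 (SE 0.15, unadjusted p = 0.0498, adjusted p = 1.00).

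Among themselves, 9 of the 10 genes, all but Hspd1, had positively correlated profiles. Across the 25 groups of both tables, Pearson's r of the group means of log2(TPM + 1) lay between 0.56 and 0.95 for the 36 pairs without Hspd1, with a median of 0.82. For Hspd1 with each of the others it lay between -0.14 and 0.49, the highest with Hspe1. With the members other than Hspd1, Hspe1 had an r from 0.56 to 0.81, beside its median of 0.745 over all genes. These groups share replicate numbers, the rise after mitosis and the 2 tables, so the correlations are given as a description. Among 9564 genes with both tables and outside the 10, the gene most like each member by the same measure was Nolc1 for Hsf1 (0.98), Rps2 for Hspa8 (0.97), Narf for Hspa5 (0.97) and Trim28 for Hsph1 (0.97). It was Larp7 for Dnaja1 (0.99), Tob1 for Dnajb1 (0.99), Hnrnpdl for Hsp90aa1 (0.99), Yars2 for Hsp90ab1 (0.96), Mak16 for Hspe1 (0.98) and Npl for Hspd1 (0.95). The median r over all genes was 0.13 for Hspd1 and between 0.55 and 0.75 for the others.

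Other chaperone genes were mostly called higher at 60 min, as were most genes of all kinds. Of 118 such genes by symbol, 94 were listed for CCNA-GFP cells, where 91 rose and 0 fell between mitosis and 60 min, beside 88.3% of all genes called higher, with a median change of 1.03. Without IAA, 86 of 95 were higher and 0 lower, beside 84.8% of all genes, with a median of 0.62 against 0.63 over all genes. The +IAA arm had 87 higher and 1 lower, beside 82.2%, with a median of 0.69 against 0.63. All 8 genes of the cytosolic chaperonin CCT, all 6 of prefoldin, which passes nascent actin and tubulin to CCT, and all 13 listed endoplasmic reticulum chaperones were called higher in each arm, where most genes were. The CCT genes had medians of 1.06 in CCNA-GFP cells and 0.53 in the -IAA arm, above and below those of all genes, and the endoplasmic reticulum genes 1.12 and 0.64. Of the further J protein genes 32 of 33 were higher in CCNA-GFP cells, with a median of 0.61, less than the median of all genes.

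The greatest changes of these genes in CCNA-GFP cells were those of Dnajb14, a J protein of the endoplasmic reticulum membrane, at 2.45, of Tomm34, a co-chaperone of mitochondrial import, at 2.18, and of Creld2, an endoplasmic reticulum protein induced by stress, at 2.12. Dnajb14 was in the -IAA arm at 1.92, Tomm34 at 1.49 and Creld2 at 1.75, all called. The lowest were Sil1, an exchange factor of BiP, at 0.00, Dnajc15 at 0.10 and Dnajc19, a J protein of the inner mitochondrial membrane, at 0.22. Of these Dnajc19 was called. Sil1 was the 1 gene called lower in the +IAA arm, at -0.13 (SE 0.06, adjusted p = 0.034).

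**Figure D5:**
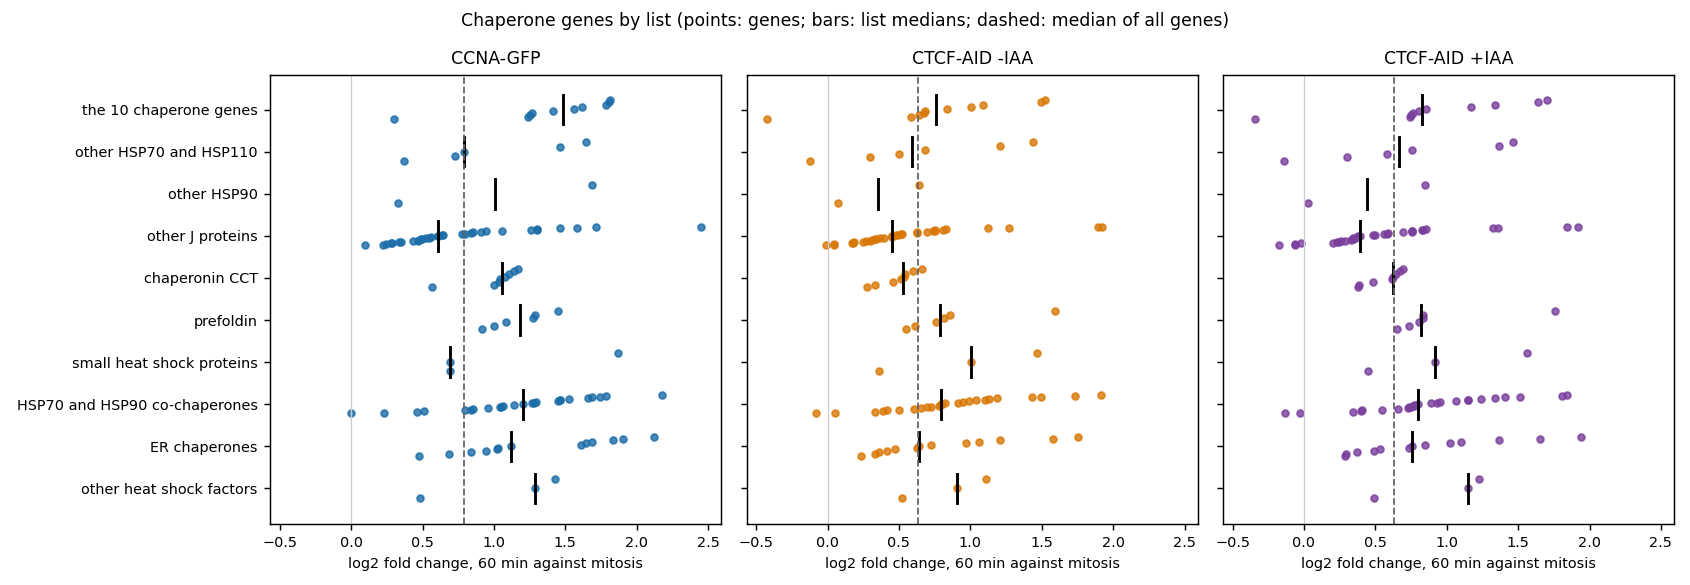
Change in log2(TPM + 1) from mitosis to 60 min (horizontal axis) of the 10 chaperone genes and of other chaperone genes by list, with one panel per arm. Points are genes, black bars list medians and the dashed line the median of all listed genes. The 10 genes have medians of 1.49, 0.76 and 0.83 against 0.79, 0.63 and 0.63 over all genes, and Hspd1 is the point furthest to the left in both CTCF-AID panels. On this scale low genes change less.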

How the data were processed

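Ribo-depleted, stranded, paired-end RNA-seq libraries were analysed from the 2 tables of pre-mRNA abundance. Per the labels and the study's methods, the authors aligned reads to mm10 with STAR and estimated TPM with RSEM on Gencode annotation (vM12) to which one unspliced isoform per gene had been added. A gene is kept in the deposited TPM tables where its mean passed 0.5 TPM in asynchronous cells or in 2 or more samples after mitosis. The curated RefSeq set also had to hold it. The STAR and RSEM versions are not given in the sources used here. Within a library, low values step by one fixed amount (100% within 0.02 of a whole step). This step differs between libraries, from 0.0184 to 0.0381 TPM. If all libraries were first rounded to the same amount, the deposited TPM carry a factor per library that the methods do not name. Because no read counts were given, no count model was used and depth is unknown.

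Columns were assigned by name. The asynchronous CTCF-AID headers are garbled and were read with the column names of the study's supplementary table. All columns were used. Values were transformed to log2(TPM + 1) and fitted per table with limma 3.58.1 (trend) in R 4.3.3, with Benjamini-Hochberg adjustment over all 9911 or 10237 genes. The fit was also run on simulated data with 200 changed genes and no shift shared by a library. It therefore does not check calls made where most genes rise together. Stage comparisons had the replicate number as a block, because the study takes fold changes within a replicate. The numbers pair the libraries: deviations of same-numbered libraries from their group means correlated at over 0.1 in 41 of 41 CCNA-GFP pairs (median 0.55) and in 182 of 182 CTCF-AID pairs (median 0.52). Where both groups hold only 2 libraries, the deviations mirror each other, so 1 correlation is counted for both replicate numbers. No 2 libraries of a group were copies (Spearman's rho at most 0.984). The single CCNA-GFP library at 50 min was not tested.

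The 10 genes were picked by name and the gene lists by role, but both choices were made with earlier results of these data known. Other chaperone genes were named by rule, as the 3 highest and 3 lowest changes at 60 min in CCNA-GFP cells, and like genes as the highest r for each member. Alternatives were a pseudocount of 0.1, libraries scaled to the same total or divided by their rounding step, genes of at least 1 TPM, robust eBayes, the other choice of block, and leaving out each replicate number.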

Additional observations from a re-analysis of the deposited data

Results flagged for a closer look

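Some changes from mitosis went in opposite directions in every replicate of CCNA-GFP cells and of the CTCF-AID -IAA arm. The lines come in separate tables, and whether these share a normalization is not given in the sources used here, so the difference was not tested. It holds on the deposited scale. Hspd1, the chaperonin gene with the highest mitotic level, gave 0.10 in CCNA-GFP cells and -0.026 in the -IAA arm at 20 min, 0.16 and -0.20 at 40 min, 0.30 and -0.42 at 60 min, 0.13 and -0.69 at 90 min, and 0.13 and -0.64 at 120 min, as changes of log2(TPM + 1).

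Hsf1 gave 0.59 in CCNA-GFP cells and -0.032 in the -IAA arm at 120 min. In asynchronous cells Hspe1 gave 0.75 and -0.13, and Dnaja1 gave 0.38 and -0.20. Of these pairs, Hspd1 at 60 min was called in both lines. One line was called for Hspd1 at 90 and 120 min (-IAA), and for Hsf1, Hspe1 and Dnaja1 (CCNA-GFP), and neither was for Hspd1 at 20 and 40 min. The call of Dnaja1 was lost without replicate 3 (0.35) and without the block (0.38). The +IAA arm was not part of this comparison and did not go down in every replicate. There, replicate 1 of Hspd1 at 20 min was 1.05 times its mitotic value. Replicate 2 of Hsf1 at 120 min held 4.32 TPM, against 3.63 TPM in mitosis. Replicate 2 was also above mitosis for Hspe1 and Dnaja1 in asynchronous cells. From 40 min on, each +IAA library of Hspd1 lay below every mitotic one of that arm. With libraries scaled to the same total, both lines went down for Hspd1 at all 5 stages (in CCNA-GFP cells -0.0095, -0.43, -0.98, -1.004 and -0.97), for Hsf1 at 120 min (-0.32 and -0.50) and for Dnaja1 in asynchronous cells (-0.11 and -0.37), and Hspe1 stayed opposite (0.24 and -0.31). Divided by the rounding step, Hspd1 at 20 min, Hspe1 and Dnaja1 were above 0 in both lines. No group held more than 3 libraries, so single libraries were not tested as outliers.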

How the results depend on the processing

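Scaling matters most, as the whole profile rises after mitosis. Of 990 single-gene values under alternatives, 879 kept direction and call, 76 lost the call, 8 gained it and 27 reversed, 26 of these with libraries scaled to the same total. On that scale the changes at 40 min against mitosis were -0.43 for Hspd1 in CCNA-GFP cells, and -0.037 for Hspe1 and -0.054 for Hsph1 in the -IAA arm. At 60 min they were -0.98 for Hspd1 in CCNA-GFP cells. In the -IAA arm they were -0.30 for Hsp90ab1, -0.24 for Hspe1, -0.23 for Hsph1 and -0.19 for Dnaja1. The +IAA arm gave -0.080 for Hsf1, -0.18 for Hsp90ab1, -0.076 for Hspe1, -0.077 for Hsph1 and -0.066 for Dnaja1. For 60 min against asynchronous cells, CCNA-GFP gave -0.30 for Hsp90ab1, -0.43 for Hspd1 (-0.11 when divided by the rounding step), -0.19 for Hspe1 and -0.13 for Hsph1. The -IAA arm gave -0.36 for Hspa8, -0.59 for Hsp90ab1, -0.010 for Hsp90aa1, -0.16 for Hspa5, -0.44 for Hspd1 and -0.26 for Hsph1. Asynchronous against mitotic CCNA-GFP cells gave -0.55 for Hspd1 and -0.11 for Dnaja1, and Hspd1 gave 0.17 for 120 against 60 min in the -IAA arm.

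Of 162 counts of called members under alternatives, 8 moved by over 1.5 times. With equal totals, 5 were called at 120 min against mitosis in CCNA-GFP cells (3 higher, 2 lower) and 8 in the -IAA arm (3 and 5), beside 52.2% and 57.8% of all genes, 6 at 60 min in the +IAA arm, beside 73.9%, and 4 at 120 against 60 min in the -IAA arm, beside 52.1%. Divided by the rounding step, 5 were called at 60 min against asynchronous cells in CCNA-GFP cells and 5 in the -IAA arm, beside 57.5% and 74.2%. Leaving out a replicate gave 6 to 9 called at 60 min against asynchronous CCNA-GFP cells, beside 51.6% to 74.5% of all genes, and 1 to 6 at 120 against 60 min, beside 12.1% to 35.8%. The cause was not tested. Without the replicate block, each count of members stayed within 1.5 times, and with the block in the IAA comparison 0 were called. Each CTCF-AID group holds 2 or 3 libraries and read depth is unknown, which limits the IAA comparison.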
